A study of Ovis aries with 30 samples.

Results

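The transcripts described here are those of 10 antioxidant enzymes and selenoproteins in perirenal brown adipose tissue (BAT) and thyroid of newborn lambs: GPX1, GPX3, GPX4, TXNRD1, TXNRD2, SELENOP, CAT, SOD1, SOD2 and PRDX3. They were taken by gene symbol from the deposited table of read counts. All 10 were present among its 28524 genes, and all 10 passed the filter on low counts in both tissues. The Romney lambs were 6 kept at 4 °C (cold), 6 kept at 20 to 22 °C (ambient temperature, AT) and 3 controls, and every lamb gave 1 library of each tissue. Cold and AT lambs were housed indoors for 2 days with their ewe and sibling, while controls were sampled within 24 h of birth, when the treatments began. A difference from control therefore cannot be told apart from 2 days of age and housing, and only cold vs. AT compares lambs of the same age. The lambs were separate animals, 1 from each twin pair. Only 2 of the controls entered the main comparisons, since the study left out 1 lamb from its own. Its values are given apart from those of the others, as the left-out control.

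Reactive oxygen is handled in steps, and the 10 genes cover most of them. Superoxide dismutases turn superoxide into hydrogen peroxide, which catalase, the glutathione peroxidases and the peroxiredoxins then reduce. Glutathione peroxidases draw their electrons from glutathione and peroxiredoxins from thioredoxin, which thioredoxin reductases keep reduced. GPX1, GPX3, GPX4, both thioredoxin reductases and SELENOP are selenoproteins: they carry selenocysteine, placed at a UGA codon with the help of a structure in the 3′ end of the mRNA. Brown fat burns fuel in its mitochondria through the uncoupling protein UCP1. Thyroid follicular cells make hydrogen peroxide on purpose, through the oxidases DUOX1 and DUOX2, to couple iodine to thyroglobulin (TG).

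Libraries held 31556500 to 37025998 counted reads in BAT and 25062784 to 30124871 in thyroid. A pair of genes without a symbol took between 43.8% and 76.5% of the BAT reads and between 5.18% and 27.8% of those in thyroid, so the counts were scaled by the reference genes ACTB, RPL19 and HUWE1 within each tissue, as the study did. Normalised counts below are on that scale, and those of BAT and thyroid may be compared only where a joint scale is named. On that scale ACTB in BAT had 31097 and 34438 in controls, with medians of 23913 in cold and 19425 in AT lambs. RPL19 in BAT had 8155 and 9826 in controls, with a median of 10711 in each treated group. These reference genes thus did not stay level with each other between groups in BAT. The tissue labels fitted the markers: the 8 follicular markers summed to between 1322910 and 5866870 normalised counts in thyroid and to between 132 and 1552 in BAT, although SLC26A4 was at or near 0 in both tissues. UCP1 was present in every BAT library, at 22462 and 20587 in the controls, at 2906 to 12407 in cold lambs and at 195 to 12953 in AT lambs. Its log2FC against control did not pass the edgeR test, at -1.42 in cold (adjusted p-value 0.431) and -2.23 in AT lambs (adjusted p-value 0.127). Some libraries stood apart. In thyroid, the skeletal muscle actin ACTA1 reached 1339890 normalised counts in AT lamb 3 and 133281 in control lamb 1. The C-cell gene CALCA reached 167311 in cold lamb 4, 251360 in AT lamb 4 and 114723 in AT lamb 5. In the left-out control, the parathyroid gene PTH stood at 7229 in thyroid and UCP1 at 87348 in BAT. In bulk tissue, fewer cells of a type and less RNA per cell cannot be told apart.

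Against control, GPX4, TXNRD1 and SOD1 fell in thyroid and TXNRD1 in BAT, and none of the 10 members rose past the test in either tissue. A gene was called at an adjusted p-value under 0.05 over all genes tested (edgeR quasi-likelihood test, Benjamini-Hochberg). In thyroid, GPX4 and TXNRD1 fell in cold lambs, 2 of 10 members, where 16.9% of all genes tested fell and 2.36% rose. GPX4, TXNRD1 and SOD1 fell in AT lambs, 3 of 10 members, where 18.8% of all genes fell and 2.24% rose. In BAT, TXNRD1 alone fell in AT lambs, 1 of 10 members, beside 6.1% of all genes lower and 3.09% higher. No member was called in BAT of cold lambs, where 0.872% of all genes fell and 0.604% rose. The shares of members that fell in thyroid were thus near those of all genes. Of the 10 members, 8 had a log2FC above 0 in BAT of cold lambs and 9 in BAT of AT lambs, against 4 in thyroid under each treatment. The median log2FC of the members was 0.33 and 0.39 in BAT, where the median of all genes was -0.10 and -0.03, and -0.30 and -0.37 in thyroid, where it was -0.28 under both treatments. Both thyroid comparisons share the same controls, as do both BAT comparisons. Where controls are said below to lie apart from treated lambs, the share of all genes doing so is not given.

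**Figure D1:**
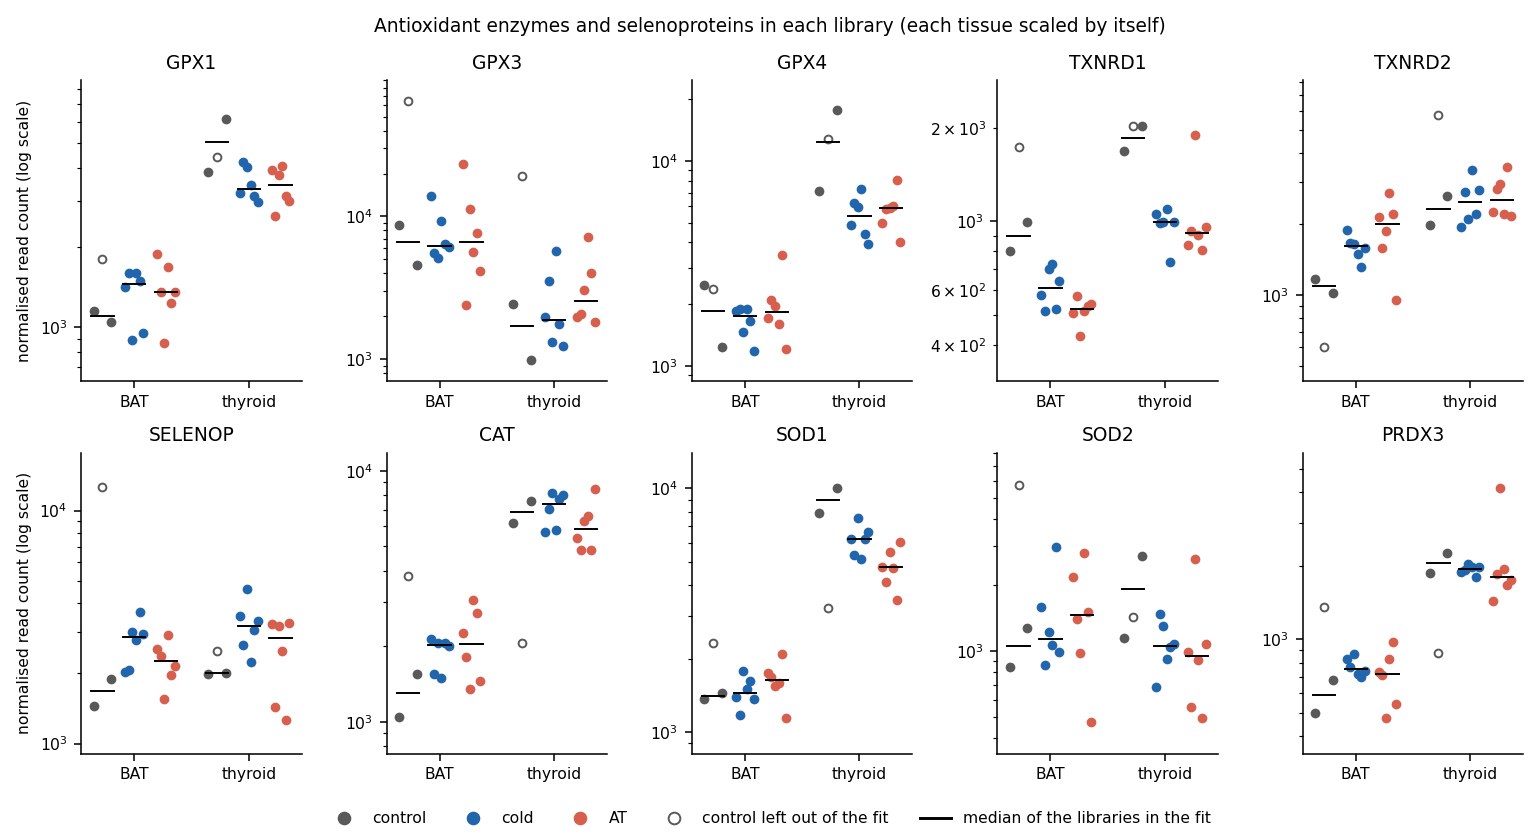
Normalised count of each of the 10 members in every library, on a log scale, by tissue and treatment, with the scale set by ACTB, RPL19 and HUWE1 within each tissue. Points are lambs, bars are medians of the libraries in the fit, and open points mark the left-out control, whose BAT library lies above all other BAT libraries for GPX3, SELENOP, SOD2, CAT, TXNRD1, SOD1 and PRDX3.

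GPX4 is the peroxidase that reduces lipid hydroperoxides within membranes. It lies on chromosome 5 of Oar_rambouillet_v1.0, from 45693305 to 45699391 on the plus strand. In thyroid it stood at 7113 and 17685 normalised counts in the controls. Cold lambs ranged from 3914 to 7325 with a median of 5394, and AT lambs from 4004 to 8083 with a median of 5859. The higher control exceeded every treated lamb, and the lower one fell inside the range of both treated groups. The log2FC was -1.19 ± 0.30 (SE) in cold lambs (adjusted p-value 0.0156) and -1.09 ± 0.30 in AT lambs (adjusted p-value 0.0196), and GPX4 was the only member past the study's further limit of a log2FC of -1 or below, which 6.15% and 5.98% of all genes passed. Without control lamb 3 the log2FC of GPX4 was -0.37 (adjusted p-value 0.649) and -0.28 (adjusted p-value 0.729), and neither was called. Relative to the median of all genes the differences were -0.90 and -0.81. In BAT, where the controls had 2489.6 and 1229 and the treated lambs 1177 to 3483, the log2FC was -0.16 ± 0.34 and 0.11 ± 0.34. The left-out control had 12731 in thyroid, between the other controls, and 2382 in BAT.

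GPX1, the abundant cytosolic glutathione peroxidase, lies on chromosome 19 from 52734847 to 52736034 on the plus strand. Thyroid controls had 3873 and 6168 normalised counts, cold lambs 2966 to 4207 and AT lambs 2644 to 4072, so that one control again lay above all treated lambs and the other within their range. The log2FC was -0.52 ± 0.20 in cold lambs and -0.55 ± 0.20 in AT lambs, with adjusted p-values of 0.0835 and 0.0638. Neither passed the test. Against a single control, whose spread is then taken from the treated groups, the values were -0.82 (adjusted p-value 0.0220) and -0.85 (adjusted p-value 0.0166) without control lamb 1, and -0.13 (adjusted p-value 0.857) and -0.16 (adjusted p-value 0.795) without control lamb 3. The left-out control had 4404 in thyroid and 1801 in BAT. In BAT, controls had 1146 and 1046, cold lambs 891 to 1601 and AT lambs 869 to 1890.1, with a log2FC of 0.27 ± 0.29 and 0.35 ± 0.29.

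GPX3, the secreted glutathione peroxidase of plasma, lies on chromosome 5 from 65009323 to 65017490 on the plus strand and varied widely between lambs. In BAT, controls had 8647 and 4555 normalised counts, cold lambs 5087 to 13883 and AT lambs 2396 to 23175. The highest AT lamb held 9.67 times the lowest, the widest range of any member within a treated group, followed by SOD2 in the same lambs at 5.87 times. The left-out control had 64322 in BAT and 19087 in thyroid, above every other library in each tissue. In thyroid, controls had 2452 and 982, cold lambs 1229 to 5716 and AT lambs 1826 to 7163. The log2FC against control was 0.23 ± 0.64 and 0.46 ± 0.65 in BAT and 0.59 ± 0.67 and 0.96 ± 0.68 in thyroid. With 95% intervals reaching from -1.15 to 1.60 in BAT of cold lambs and from -0.51 to 2.44 in thyroid of AT lambs, these data can show neither a fall nor a rise of GPX3. In thyroid, the highest cold lamb and the highest AT lamb were cold lamb 4 and AT lamb 4, the same libraries that led in CALCA. In BAT, the highest AT lamb, AT lamb 1, also led the treated lambs in the adipocyte gene ADIPOQ, at 75781, and the left-out control had 204209. ADIPOQ is 1 of 6 adipocyte markers and CALCA 1 of 5 parathyroid and C-cell markers. They were set beside GPX3 beyond the chosen relations to UCP1 and TG, and the other listed markers are not compared with it here. No such match is given for cold lamb 1, which had the most GPX3 of the cold lambs in BAT. The part of C cells and adipocytes in these values was not tested.

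**Figure D2:**
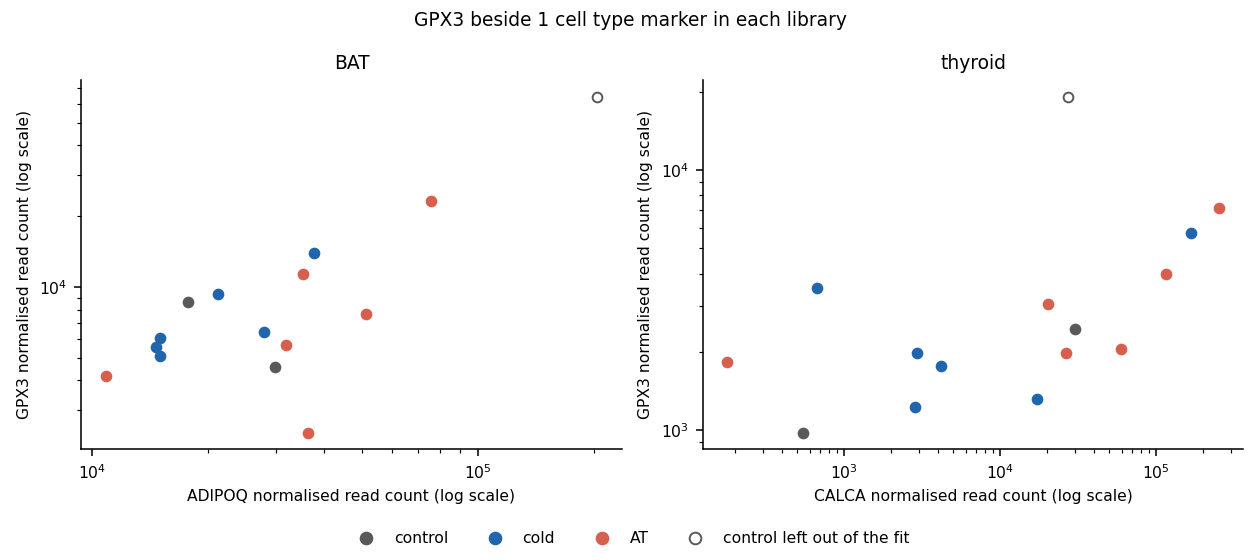
GPX3 against the adipocyte gene ADIPOQ in BAT and against the C-cell gene CALCA in thyroid, both axes as normalised counts on a log scale, with 1 point per lamb coloured by treatment and the left-out control drawn open. In thyroid the treated lambs with the most GPX3, at 5716 in cold lamb 4 and 7163 in AT lamb 4, also had the most CALCA in their groups.

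TXNRD1, the cytosolic thioredoxin reductase, was the only member called in both tissues. It lies on chromosome 3 from 185721473 to 185783992 on the plus strand. In BAT, controls had 805 and 994 normalised counts, cold lambs 515 to 730.1 with a median of 611, and AT lambs 428 to 575 with a median of 524. Both controls lay above all 12 treated lambs, and the left-out control was higher still at 1738. The log2FC was -0.80 ± 0.18 in AT lambs (adjusted p-value 0.0135) and -0.55 ± 0.18 in cold lambs, where it did not pass the test (adjusted p-value 0.118). With all 3 controls in the fit, the fall in cold lambs was -0.88 (adjusted p-value 0.0265). Without control lamb 1 or control lamb 3, the call in AT lambs was lost, at -0.94 (adjusted p-value 0.0617) and -0.62 (adjusted p-value 0.229).

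In thyroid, TXNRD1 stood at 1691 and 2035 normalised counts in the controls and at 2027 in the left-out control. Cold lambs ranged from 739 to 1096. AT lambs ranged from 811 to 956 apart from AT lamb 3, which had 1893. Leaving that lamb aside, a choice made after the values had been seen, controls and treated lambs did not overlap. The log2FC was -0.93 ± 0.26 in cold lambs (adjusted p-value 0.0249) and -0.82 ± 0.26 in AT lambs (adjusted p-value 0.0389), or -0.64 and -0.54 relative to the median of all genes. AT lamb 3 was the thyroid library richest in ACTA1, and without it the fall in AT lambs was -1.07 ± 0.15 (adjusted p-value 0.000198). More of all genes were called lower without that lamb as well. Without control lamb 3 both calls were lost, at -0.77 (adjusted p-value 0.344) and -0.67 (adjusted p-value 0.401). The call in AT lambs was also lost without control lamb 1 (adjusted p-value 0.0608) and without any single AT lamb other than AT lamb 3 (adjusted p-values 0.0620 to 0.0658). With the RNA integrity number as a covariate it was -0.83 and not called (adjusted p-value 0.0633).

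TXNRD2 is the mitochondrial thioredoxin reductase, on chromosome 17 from 82327320 to 82354745 on the minus strand. In BAT it stood at 1166 and 1019.6 normalised counts in the controls, at 1311 to 1877 in cold lambs and at 955 to 2712 in AT lambs. Cold lambs all lay above both controls, and among AT lambs only AT lamb 6 lay below them. The left-out control was lower than all of these at 605, and higher than every other library in thyroid at 5788. The log2FC was 0.55 ± 0.29 in cold lambs (adjusted p-value 0.347) and 0.80 ± 0.30 in AT lambs (adjusted p-value 0.102), neither past the test. The value in AT lambs passed under other scalings, with 0.86 and an adjusted p-value of 0.0280 by TMM. In thyroid, controls had 1982 and 2634 and treated lambs 1946 to 3477, with a log2FC of 0.13 ± 0.23 and 0.20 ± 0.23.

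The ratio of TXNRD2 to TXNRD1 reads in a library needs no scale, so it is free of the choice of reference genes. It was formed after the values of both genes had been seen. In BAT the ratio was 1.45 and 1.03 in the controls, 2.04 to 3.24 in cold lambs and 1.76 to 5.27 in AT lambs. In thyroid it was 1.17 and 1.30 in the controls, 1.84 to 3.08 in cold lambs and 1.56 to 4.29 in AT lambs. All 12 treated lambs lay above both controls in each tissue. The log2 ratio was higher by 1.09 in cold and 1.53 in AT lambs in BAT, and by 1.05 and 1.07 in thyroid, each at the smallest p that 2 against 6 lambs allow in a 2-sided exact permutation test (p = 0.0714). The left-out control had a ratio of 0.348 in BAT but 2.86 in thyroid. With it, the BAT differences were 1.70 and 2.14 (exact permutation p = 0.0238, the smallest possible), and the thyroid differences 0.64 (exact permutation p = 0.119) and 0.67 (exact permutation p = 0.143). Cold and AT lambs differed in the log2 ratio by -0.44 in BAT (exact permutation p = 0.128) and by -0.02 in thyroid (exact permutation p = 0.926).

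**Figure D3:**
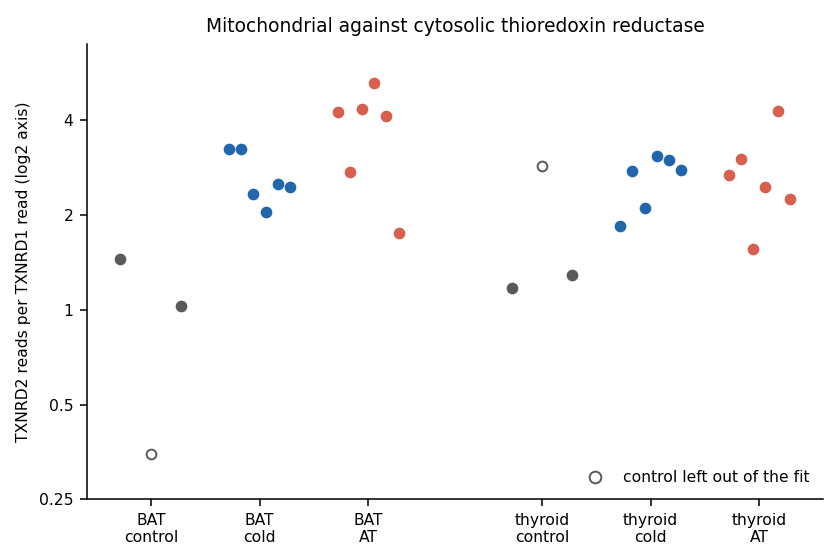
Ratio of TXNRD2 to TXNRD1 reads in each library, on a log scale, by tissue and treatment, with 1 point per lamb and the left-out control drawn open. All treated lambs lie above the controls at 1.45 and 1.03 in BAT and at 1.17 and 1.30 in thyroid, while the left-out control lies lowest in BAT at 0.348 and among the treated lambs in thyroid at 2.86.

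SELENOP is the plasma carrier that delivers selenium to other tissues and holds several selenocysteines. It lies on chromosome 16 from 33519963 to 33529875 on the plus strand. Its exons overlap those of CCDC152 on the opposite strand, and since it is not given whether strand was used in counting, reads of the pair may not be separable. In BAT, controls had 1453 and 1893 normalised counts, cold lambs 2037 to 3660.2 and AT lambs 1552 to 2925. All 6 cold lambs lay above both controls, whereas the left-out control had 12661. The log2FC was 0.72 ± 0.28 in cold lambs (adjusted p-value 0.176) and 0.43 ± 0.27 in AT lambs (adjusted p-value 0.330). In thyroid, controls had 1986 and 2016, cold lambs 2248 to 4593 and AT lambs 1268 to 3286, and all 6 cold lambs lay above both controls, though cold lamb 4 at 2248 lay below the left-out control at 2494. The log2FC there was 0.69 ± 0.36 (adjusted p-value 0.184) and 0.32 ± 0.35 (adjusted p-value 0.544). None of these differences passed the test.

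Catalase (CAT), the peroxidase of peroxisomes, lies on chromosome 15 from 70017470 to 70053976 on the plus strand. BAT controls had 1046 and 1552 normalised counts, cold lambs 1493 to 2132 and AT lambs 1352 to 3044, so the groups overlapped through the higher control. The log2FC was 0.53 ± 0.30 (adjusted p-value 0.375) in cold lambs and 0.69 ± 0.31 (adjusted p-value 0.167) in AT lambs. In thyroid, controls had 6184 and 7559, cold lambs 5690.4 to 8159 and AT lambs 4812 to 8431, with a log2FC of 0.04 ± 0.22 and -0.18 ± 0.21. The left-out control departed in opposite directions, with 3810.1 in BAT and 2062 in thyroid.

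SOD1, the copper and zinc superoxide dismutase of the cytosol, lies on chromosome 1 from 132043238 to 132051913 on the minus strand. In thyroid it stood at 7942 and 10019 normalised counts in the controls, at 5139.5 to 7577 in cold lambs with a median of 6202, and at 3487 to 6019 in AT lambs with a median of 4744. Both controls lay above all 12 treated lambs. The left-out control, at 3217, lay below them all. The fall passed the test in AT lambs (log2FC -0.91 ± 0.19, adjusted p-value 0.00573) and did not in cold lambs (-0.54 ± 0.19, adjusted p-value 0.0639). Relative to the median of all genes these were -0.63 and -0.25. With all 3 controls the value in AT lambs was -0.56 (adjusted p-value 0.149), and without control lamb 3 it was -0.72 (adjusted p-value 0.206). In BAT, controls had 1364 and 1444, cold lambs 1175 to 1789 and AT lambs 1143 to 2101, with a log2FC of 0.07 ± 0.22 and 0.22 ± 0.22.

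SOD2, the manganese superoxide dismutase of mitochondria, lies on chromosome 8 from 90687917 to 90698050 on the minus strand. BAT controls had 844 and 1268 normalised counts, cold lambs 859 to 2974 and AT lambs 476 to 2791. In thyroid, controls had 1141 and 2707, cold lambs 684 to 1477 and AT lambs 496 to 2618. The groups overlapped in both tissues, and AT lamb 3 supplied the 2618, the other AT lambs reaching no higher than 1078. The left-out control had 5746 in BAT and 1434 in thyroid. The log2FC was 0.45 ± 0.55 and 0.56 ± 0.56 in BAT, and -0.83 ± 0.51 and -0.80 ± 0.51 in thyroid (adjusted p-values 0.260 and 0.271). Without AT lamb 3 the thyroid value in AT lambs was -1.26 ± 0.35 (adjusted p-value 0.0129).

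PRDX3, the mitochondrial peroxiredoxin that is served by TXNRD2 through mitochondrial thioredoxin, lies on chromosome 22 from 42484055 to 42493168 on the minus strand. It was the steadiest member in thyroid of cold lambs, at 1796 to 2042 normalised counts, beside 1873 and 2250.1 in the controls. AT lambs ranged from 1435 to 1939 apart from AT lamb 3 with 4156. In BAT, controls had 497 and 684, cold lambs 703 to 869.7 and AT lambs 476 to 976, and all 6 cold lambs lay above both controls in the fit. The left-out control lay above every cold lamb in BAT, at 1355, and below every other library in thyroid, at 879. The log2FC was 0.38 ± 0.24 (adjusted p-value 0.427) and 0.26 ± 0.24 (adjusted p-value 0.518) in BAT, and -0.09 ± 0.30 and 0.05 ± 0.30 in thyroid.

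**Figure D4:**
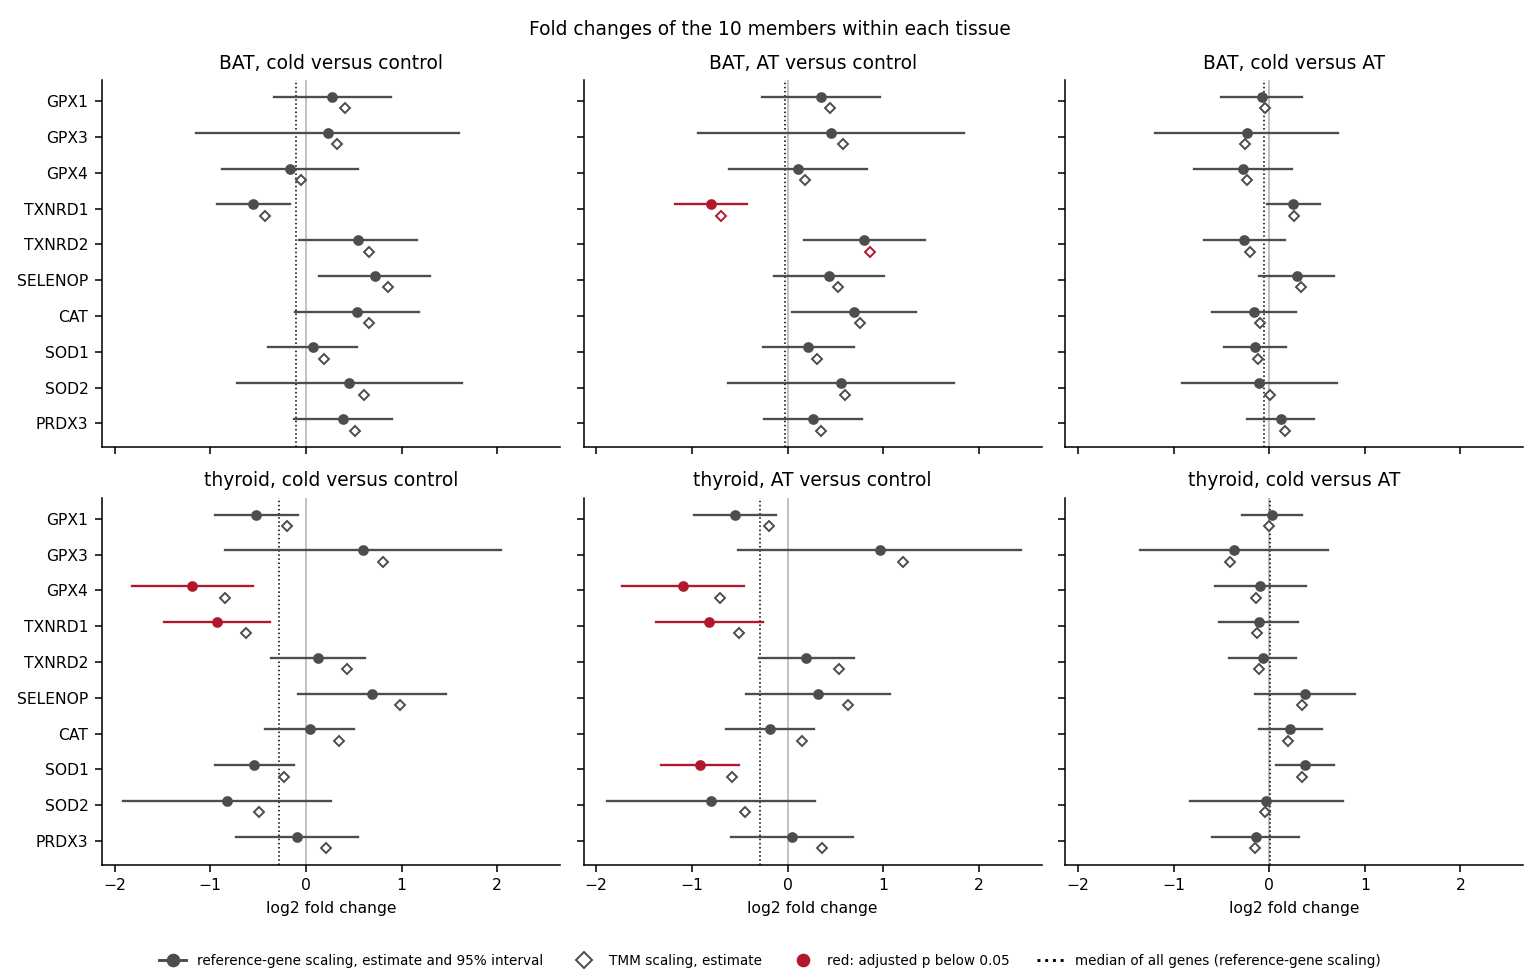
The log2FC of each member in cold vs. control, AT vs. control and cold vs. AT, in BAT and in thyroid, with 95% intervals from the edgeR fit, open diamonds for TMM scaling, a dotted line at the median of all genes and red where the adjusted p-value was under 0.05. Red points on the reference-gene scale are TXNRD1 in BAT of AT lambs, GPX4 and TXNRD1 in thyroid of cold lambs, and GPX4, TXNRD1 and SOD1 in thyroid of AT lambs.

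The falls in thyroid depended on the scale. Under TMM scaling, which sets the bulk of genes level, the median of all genes was 0.02 and 0.05 in place of -0.28. No member was then called in thyroid: GPX4 stood at -0.85 (adjusted p-value 0.0690) and -0.70 (adjusted p-value 0.119), TXNRD1 at -0.63 (adjusted p-value 0.0967) and -0.50 (adjusted p-value 0.173), and SOD1 in AT lambs at -0.58 (adjusted p-value 0.0571). Without the libraries richest in ACTA1, AT lamb 3 and control lamb 1, the only control left was control lamb 3. Under TMM, GPX4 then stood at -1.27 and -1.10, and TXNRD1 at -0.61 and -0.70. Control lamb 3 was the higher control in the fit for both genes, at 17685 normalised counts of GPX4 and 2035 of TXNRD1. These values therefore rest on that 1 lamb. This alternative was chosen after the data had been seen. With all libraries of the fit these members kept their sign, whereas PRDX3 in cold lambs and CAT in AT lambs, neither of which was called, lay above 0 under TMM. Markers moved beside them on the reference-gene scale, where the median of all genes was -0.28. On it, 16.9% of all genes fell and 2.36% rose in cold lambs, and 18.8% fell and 2.24% rose in AT lambs. Marker values under TMM are not given here. TG fell by 0.90 and 1.17 on the log2 scale, PECAM1 of endothelium by 1.30 and 1.25, while C1QA of macrophages rose by 2.98 and 2.19 and CSF1R by 1.41 and 0.95, for cold and AT lambs in that order. Over the whole lists, 3 of 7 tested follicular markers and 2 of 6 endothelial markers fell and 2 of 5 macrophage markers rose in cold lambs, and the counts were the same in AT lambs except that the macrophage marker CD14 fell by 1.01. In BAT of AT lambs, beside TXNRD1, the adipocyte marker FABP4 fell by 1.39 and the macrophage marker CD68 by 1.03. Of 6 endothelial markers, KDR fell by 1.29 and VWF by 0.95, beside 6.1% of all genes lower and 3.09% higher. But 5 of 6 adipocyte markers and 3 of 5 tested macrophage markers had a log2FC above 0, none of them called. The part of cell makeup in the members' differences was not tested.

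Cold vs. AT compares lambs of one age that differed in temperature. No member was called in either tissue, where 0.309% of all genes were called in BAT and 0% in thyroid (870 thyroid genes had an unadjusted p under 0.05, and DESeq2 called 2 higher and 2 lower). The nearest were SOD1 in thyroid, with 6202 as the median of cold lambs against 4744 in AT lambs, and TXNRD1 in BAT, with 611 against 524. SOD1 was higher in cold lambs by 0.38 ± 0.14 (95% interval 0.07 to 0.68, unadjusted p 0.0184, adjusted p-value 0.907), and TXNRD1 by 0.25 ± 0.13 (-0.03 to 0.53, adjusted p-value 0.447). In the 2-sided exact permutation test of single members, 6 against 6 lambs, SOD1 in thyroid gave p = 0.0216 and TXNRD1 in BAT p = 0.0519. These were 2 of 20 such tests. The 95% intervals were narrowest in BAT for TXNRD1 and SOD1 (-0.48 to 0.18) and widest for GPX3, with -1.19 to 0.72 in BAT and -1.35 to 0.61 in thyroid. A log2 difference of -1 for GPX3 lies inside both intervals. For every other member, a difference of 1 or -1 lies outside the interval in both tissues, for SOD2 at -0.91 to 0.71 in BAT only narrowly. Of the other genes of these pathways, NQO1 alone was called in BAT, higher in cold lambs, and none in thyroid.

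Other genes of the same pathways were counted from lists drawn up with earlier results of these data known. In thyroid their calls against control were downward in both treatments, with 0 higher in any of the 8 lists. Few genes rose at all: 2.36% of all thyroid genes in cold and 2.24% in AT lambs, while 16.9% and 18.8% fell. Among 16 tested other selenoproteins, 7 fell in cold and 7 in AT lambs. They included the gastrointestinal peroxidase GPX2 (-3.11 ± 0.76 and -3.20 ± 0.76), the endoplasmic reticulum protein SELENOS (-1.56 ± 0.18 and -1.58 ± 0.18) and SELENOH (-1.31 ± 0.21 and -1.43 ± 0.21). Of 10 genes for selenocysteine insertion and selenium handling, 4 fell under each treatment: LRP8, a receptor that takes up SELENOP, fell by 1.91 in both, the elongation factor EEFSEC by 1.12 and 0.94, and the SECIS-binding SECISBP2 by 0.84 and 0.76. Under TMM scaling the first list had 4 and 5 lower and the second 2 and 2, and the number of all genes lower under TMM is given in the next paragraph.

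In the systems that supply the enzymes with electrons, the thyroid list of the glutathione system had 3 of 14 lower in cold lambs and 4 of 14 in AT lambs. Glutathione reductase (GSR) stood at -1.39 ± 0.33 and -1.89 ± 0.32. Glutathione synthetase (GSS) fell by 1.16 in cold lambs. Of 11 partners of thioredoxin, peroxiredoxin and superoxide dismutase, 5 fell under each treatment, among them sulfiredoxin SRXN1 (-1.68 ± 0.27 and -1.96 ± 0.27), thioredoxin TXN (-1.42 ± 0.28 and -1.34 ± 0.28), the substrate of TXNRD1, and PRDX1 (-1.26 ± 0.20 and -1.39 ± 0.19). Regulators and targets of NRF2, the transcription factor that drives many of these genes, had 7 of 10 lower in cold and 8 of 10 in AT lambs, led by the ferritin light chain FTL (-2.23 ± 0.20 and -2.87 ± 0.20), with NQO1 at -1.57 ± 0.31 and -1.96 ± 0.31. The NRF2 list mixes regulators with targets, so its count is no measure of NRF2 activity. Under TMM scaling these 3 lists had 3, 4 and 5 lower in cold and 3, 4 and 4 in AT lambs. Of all genes, 16.9% and 18.8% fell on the reference-gene scale, and 804 and 754 of 16122 fell under TMM.

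Of 12 peroxisomal genes in thyroid 5 fell in cold and 6 in AT lambs, with the import receptor PEX5 at -0.97 in cold and -0.96 in AT lambs. Of 5 tested genes that produce hydrogen peroxide or superoxide, the DUOX2 maturation factor DUOXA2 fell in AT lambs (-0.97 ± 0.30, adjusted p-value 0.0328). Of 8 genes of mitochondrial content, TFAM fell in AT lambs (-0.64 ± 0.19). Of all thyroid genes, 16.9% fell in cold and 18.8% in AT lambs, and the single calls of DUOXA2 and TFAM were near that share. Counts of these lists under TMM scaling are not given here. In BAT the counts were low. In AT lambs 3 of 15 other selenoproteins fell (SELENOT -0.78 ± 0.22, SELENOH -0.77 ± 0.22, SEPHS2 -0.64 ± 0.19), with 1 of 9 selenium-handling genes (SCLY, which recycles selenium from selenocysteine, -1.43 ± 0.32), 1 of 12 glutathione genes (GCLM -0.85 ± 0.22) and 2 of 11 thioredoxin and peroxiredoxin partners (SRXN1 -0.83 ± 0.19 and PRDX1 -0.77 ± 0.21), beside 6.1% of all genes. Under TMM and median-of-ratios scaling none of the 15 other selenoproteins was called, and SECISBP2L and PRDX6, named here after their values were seen, were called higher. In BAT of cold lambs the single call in these lists was the citric acid cycle enzyme CS (-1.25 ± 0.28, adjusted p-value 0.0373).

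Between tissues, BAT held more transcript of 5 of 10 members and less of 2, near the shares of all genes. The comparison used the 12 treated lambs and a joint scale for both tissues, on which 49.9% of all genes were higher in BAT and 24.3% lower, and the median of all genes lay at 0.34. Of the genes that produce hydrogen peroxide or superoxide, DUOX1, DUOX2, DUOXA1, DUOXA2 and CYBB were lower in BAT and NOX4 was higher, 6 of 6 tested. GPX3 differed most among the members, with 3789 to 38603 normalised counts in BAT and 747 to 4459 in thyroid, a log2 difference of 2.88 ± 0.37 (adjusted p-value 1.26e-07) that was seen in 12 of 12 lambs. SOD2 followed with 792 to 4649 against 310.4 to 1691 (1.83 ± 0.29, adjusted p-value 3.6e-06, 11 of 12 lambs). SELENOP had 2586 to 5667 against 793 to 2816 (1.19 ± 0.16, adjusted p-value 1.48e-07, 12 of 12 lambs). Of the reductases, TXNRD2 was higher by 0.81 ± 0.13 (adjusted p-value 5.31e-06, 12 of 12 lambs), and TXNRD1 by 0.53 ± 0.12 (adjusted p-value 0.00037, 11 of 12 lambs), the latter only 0.18 above the median of all genes.

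SOD1 and CAT were lower in BAT. SOD1 had 1904 to 3357 against 2182.1 to 4645 in thyroid (-0.43 ± 0.10, adjusted p-value 0.000392), lower in 10 of 12 lambs. CAT had 2251 to 5069.6 against 3011 to 5140.0 (-0.34 ± 0.13, adjusted p-value 0.0194), lower in 9 of 12, and this call was lost with all 3 controls in the fit (-0.33, adjusted p-value 0.129). By group, SOD1 differed between tissues by -1.34 ± 0.25 in the controls, -0.70 ± 0.14 in cold lambs and -0.16 ± 0.14 in AT lambs, where it was not called (adjusted p-value 0.334). CAT likewise had -1.06 ± 0.32, -0.54 ± 0.18 and -0.14 ± 0.18, not called in AT lambs (adjusted p-value 0.523). GPX4 was lower in 11 of 12 lambs, but its difference of -0.25 ± 0.17 did not pass the test (adjusted p-value 0.188), nor did those of GPX1 (0.03 ± 0.13) and PRDX3 (-0.08 ± 0.14). Under median-of-ratios scaling GPX4 (-0.63), PRDX3 (-0.45) and GPX1 (-0.34) were called lower in BAT and TXNRD1 was not called (0.16, adjusted p-value 0.134). The directions of GPX3, SOD2, SELENOP, TXNRD2, CAT and SOD1 were the same under the 3 scalings.

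**Figure D5:**
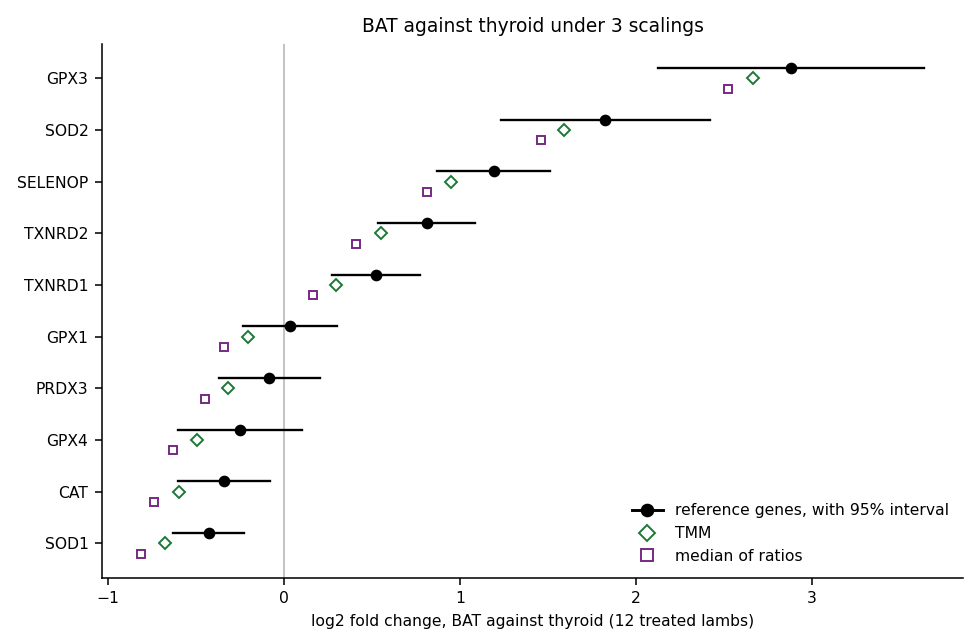
Log2 difference of each member between BAT and thyroid of the 12 treated lambs on the joint scale, with 95% intervals from the edgeR fit, and the estimates under TMM and median-of-ratios scaling. GPX3 (2.88), SOD2 (1.83), SELENOP (1.19) and TXNRD2 (0.81) lie to the BAT side, and SOD1 (-0.43) and CAT (-0.34) to the thyroid side.

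Whether a treatment moved a member differently in the 2 tissues was tested as an interaction. For AT vs. control, 1 of 10 members was called, beside 1.71% of all genes: SOD1, with a log2FC in BAT above that in thyroid by 1.18 ± 0.28 (adjusted p-value 0.0303). The call was lost under TMM scaling (0.91, adjusted p-value 0.0801), with the lamb as a block (1.17, adjusted p-value 0.0719), and with all 3 controls (0.60, adjusted p-value 0.335). In the last fit TXNRD2 was called instead (1.51, adjusted p-value 0.0325). No member was called for cold vs. control, beside 0.182% of all genes, nor for cold vs. AT, where 0% of all genes were called (1340 at an unadjusted p under 0.05, and DESeq2 called 19 higher and 11 lower). In the last comparison SOD1 had -0.54 ± 0.20 (unadjusted p 0.0113, adjusted p-value 0.454). GPX4, which was called in thyroid against control, differed between tissues by 1.06 ± 0.49 in cold (adjusted p-value 0.395) and 1.25 ± 0.49 in AT lambs (adjusted p-value 0.173), so a difference of its response between the tissues was not shown.

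Per kilobase of exon, GPX3 led in BAT, with a median of 3970.4 normalised counts per kb over the 14 libraries (1521 to 14705). GPX4 came next with 2079.6, then SOD1 with 1776, GPX1 with 1461, SELENOP with 1021, SOD2 with 971, CAT with 787, PRDX3 with 449.5, TXNRD2 with 366 and TXNRD1 with 157. SELENOP and SOD2 were not ordered beyond their spread, SELENOP being the higher in 5 of 14 libraries despite its higher median. In thyroid, GPX4 led with a median of 6895 per kb and SOD1 followed with 6682, the first above the second in 8 of 14 libraries. Then came GPX1 with 3903, CAT with 2660.0, SELENOP with 1284, GPX3 with 1281, PRDX3 with 1180.3, SOD2 with 827, TXNRD2 with 554 and TXNRD1 with 278. SELENOP exceeded GPX3 in 7 of 14 libraries, so these were not ordered either. The secreted peroxidase was first in BAT and sixth in thyroid, and TXNRD1 was last in both.

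Across the 12 treated lambs, no member passed the test for a relation to UCP1 in BAT (smallest adjusted p-value 0.67 over 10 members, permutation test) or to TG in thyroid (smallest 0.694). In thyroid, PRDX3 had Pearson's r = -0.519 (permutation p = 0.0957, adjusted 0.694) and Spearman's rho = 0.406 (permutation p = 0.194, adjusted 0.817), of opposite sign. Without AT lamb 3 and cold lamb 3, the lambs farthest from the median of TG, PRDX3 had r = 0.581 (permutation p = 0.063, adjusted 0.315) and TXNRD1 had r = 0.641 (permutation p = 0.0485, adjusted 0.315). Within the 6 cold lambs normalised PRDX3 rose with normalised TG (r = 0.963, exact permutation p = 0.00139, adjusted 0.0139, and rho = 1.0, exact permutation p = 0.00278, adjusted 0.0278). Within the 6 AT lambs it did not (r = -0.792, exact permutation p = 0.125, adjusted 0.417). Over all 12 lambs the relation did not hold, and the difference between the groups was not tested. PRDX3 and TG were divided by the same size factors, and the relation within cold lambs was not computed under TMM scaling. In thyroid of cold lambs 1 to 5, PRDX3 had 2135, 2041, 2033, 2013 and 2118 reads before scaling. Their size factors were 1.13, 1.06, 0.996, 1.02 and 1.18, and normalised PRDX3 in these lambs ran in the reverse order of the size factors. The part of the shared size factors in the relation was not tested. Each adjustment covered only the 10 members in 1 tissue and 1 set of lambs.

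For each member, the gene whose deviations from the group means were most alike was sought over the 14 libraries of a tissue. These libraries share depth and scale, and the correlations are descriptions. In BAT, SOD2 went with ACAA2 of mitochondrial fatty acid oxidation (r = 0.916) and PRDX3 with the mitochondrial ribosomal gene MRPS22 (r = 0.912). CAT went with the peroxisome biogenesis gene PEX3 (r = 0.952), and GPX4 with MICOS10 of the inner mitochondrial membrane (r = 0.913). TXNRD1 went with ZNF518B (r = 0.953), TXNRD2 with C5H19orf44 (r = 0.973), SOD1 with ASB5 (r = 0.944), GPX1 with FZD7 (r = 0.880), GPX3 with PLBD1 (r = 0.870) and SELENOP with ANKMY2 (r = 0.832). In thyroid, SOD2 went with SELENOS, a selenoprotein (r = 0.957). GPX4 went with SAT2 (r = 0.971), SOD1 with CTSV (r = 0.984), PRDX3 with SSB (r = 0.983), TXNRD1 with SMG5 (r = 0.979), CAT with RNF13 (r = 0.964) and SELENOP with EIF3F (r = 0.953). GPX3 went with MDGA1 (r = 0.926), TXNRD2 with TRAPPC3L (r = 0.915) and GPX1 with HSPA12A (r = 0.902). No gene was the closest to the same member in both tissues.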

How the data were processed

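RNA of perirenal BAT and thyroid from 15 lambs was sequenced as read pairs on a BGISEQ-500 after oligo(dT) selection. Reads were trimmed (Trimmomatic 0.39), aligned (STAR 2.7.7a) to Oar_rambouillet_v1.0 and counted per gene with featureCounts of Subread 2.0.0 including multimapping reads, and the authors deposited the raw counts of 30 libraries. The strand setting is not given in the sources used here. The deposited table names sequences by accession, and chromosome numbers were assigned from the RefSeq genes shared with ARS-UI_Ramb_v3.0. No sequence is printed.

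Each tissue was fitted separately with edgeR 4.0.16 (R 4.3.3, quasi-likelihood test, robust, 3 groups together) after a filter of 10 or more reads in 10 or more libraries per gene, scaled by size factors from ACTB, RPL19 and HUWE1. Both tissues were fitted together for tissue differences and interactions. Main fits used 2 of 3 controls. Lambs are the replicates. The lamb pairs the tissues: same-lamb deviations correlated at 0.0456 to 0.327. The gene list, the other lists and the tests were chosen with earlier results of these data known. From each list at most the 3 called genes of largest log2FC per comparison were named, and for each member and tissue the 1 most correlated gene with a symbol. Relations and exact tests used log2(normalised count + 1), with 100000 resamples above 10 lambs. Alternatives were TMM and median-of-ratios scaling, DESeq2 1.42.0, filters, covariates, a lamb block and left-out libraries. Scripts were tested on simulated data. P-values of the fits within a tissue rest on a spread pooled over the 3 groups, with 12 of 14 lambs treated. The joint fit took the 2 libraries of a lamb as separate, except with the lamb as a block. Some genes that the naming rule chose are not reported here.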

Additional observations from a re-analysis of the deposited data

Results flagged for a closer look

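In thyroid, 3 values stood apart within their group of 6 lambs by the gap to the nearest lamb (Dixon's 95% limit), among 40 groups tested, of which chance marks about 1 in 20. TXNRD1 was lowest in cold lamb 5 at 739 normalised counts and highest in AT lamb 3 at 1893, and PRDX3 was highest in AT lamb 3 at 4156. AT lamb 3 was also the thyroid library with most ACTA1, and the part of muscle RNA in these values was not tested.

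SOD1 differed between BAT and thyroid in its response to AT vs. control by 1.18 on the log2 scale, in a test of the difference itself (adjusted p-value 0.0303, edgeR). The call was lost with the lamb as a block (adjusted p-value 0.0719), under TMM scaling (0.0801) and with all 3 controls (0.335).

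The control left out of the comparisons lay above every library in the fit for GPX3 in BAT (64322 normalised counts) and in thyroid (19087), for TXNRD2 in thyroid (5788), and in BAT for SELENOP (12661), SOD2 (5746), CAT (3810.1), SOD1 (2319), TXNRD1 (1738) and PRDX3 (1355). It was a single lamb.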

How the results depend on the processing

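Against control, the member counts were small and rested on 2 controls. In BAT of cold lambs 0 became 1 with all 3 controls. In BAT of AT lambs 1 became 2 under TMM, median-of-ratios scaling, DESeq2 and all 3 controls, and 0 with an absolute log2FC of at least 1; leaving out 1 lamb gave 0 (without control lamb 1 or 3) to 2 (without AT lamb 6). In thyroid of cold lambs 2 became 0 under TMM and median-of-ratios scaling and 1 with an absolute log2FC of at least 1, and leaving out 1 lamb gave 0 (without control lamb 3) to 3. In thyroid of AT lambs 3 became 0 under both scalings, 1 with the log2FC limit, and 1 when only the 2 groups compared were fitted, TXNRD1 was lost with no filter beyond 1 read (adjusted p-value 0.0524) and with the RNA integrity covariate, and leaving out 1 lamb gave 0 (without control lamb 3) to 5 (without AT lamb 3). Calls over all genes moved with them: in the last comparison 3026 genes were lower, against 103 without control lamb 3 and 4788 without AT lamb 3. Leaving out AT lamb 3 and control lamb 1 together was an alternative chosen after seeing the data, with control lamb 3 as the only control. Its spread is then assumed to be that of the other groups, so calls are not given. Under TMM, GPX4 stood at -1.27 in cold and -1.10 in AT lambs, TXNRD1 at -0.61 and -0.70, and SOD2 at -0.88 and -1.25. The cause of these shifts was not tested. Cold vs. AT had 0 under every left-out lamb in both tissues.

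Between tissues 7 became 3 with the log2FC limit and 4 in AT lambs alone, and leaving out 1 library gave 7 to 8. GPX1 changed sign under median-of-ratios scaling (-0.34). The SOD1 interaction for AT vs. control went from 1 call to 0 under TMM, under median-of-ratios scaling and with the replicate block (lamb), and the block changed no other call. The exact test gave 1 member in BAT under TMM in place of 0 (TXNRD1, p = 0.0433). TG was related to 1 member within cold lambs in place of 0, a relation not computed under TMM. Of the single values under alternatives, 1651 stayed the same, 96 moved, 34 weakened, 18 strengthened and 1 reversed.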
